A study of Mus musculus with 4 samples.

Results

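Heat shock proteins and chaperonins are the genes described here, in hearts of mice with and without *Jun* in striated muscle. They were taken as all probe sets whose single symbol in the platform annotation is 1 of 36 listed genes of the HSP70, HSP110, HSP90, small heat shock protein, DNAJ, CCT and mitochondrial chaperonin families, with their partners and the heat shock factors. Of the 36 listed genes, 34 were measured, by 88 of the 45037 probe sets tested, and *Hsp90ab1* and *Hsf1* were not analysed here. The arrays name 18193 genes in all.

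RNA came from hearts of mice at 10 weeks of age on a mixed 129/Ola-C57BL/6 background, 2 Junf/f and 2 Jun delta mu, with 1 Affymetrix mouse genome array for each heart. Both groups carry floxed *Jun* alleles, and Jun delta mu mice also carry Cre recombinase under the muscle creatine kinase promoter (MCK-Cre), so that the gene is lost in striated muscle and kept in the other cells of the heart. The hearts were not stimulated, and the labels give no sex. In RNA from a whole organ, fewer cells of a type and less RNA per cell cannot be told apart.

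Chaperones bind unfolded or partly folded proteins and keep them from clumping. HSP70 proteins work in cycles of ATP use, started by DNAJ proteins and ended by exchange factors such as the HSP110 proteins and Bag3, and hand clients on to HSP90. Small heat shock proteins hold unfolded proteins without ATP and are abundant in heart muscle, where filaments are under constant load. The CCT ring, also called TRiC, folds actin and tubulin in a closed chamber. Under stress the heat shock factor Hsf1 binds repeats of the bases GAA and TTC near gene starts, called heat shock elements, and the stress-inducible members rise from low levels, whereas the constitutive members stay high at all times.

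The DNA at the starts of some of these genes holds letters of both kinds, heat shock elements and sites for c-Jun. Promoter windows of RefSeq on GRCm38.p6, each with 250 bases before and 50 after a start, were found for 28 of the 36 genes, 39 windows in all. The heat shock element was searched as 2 units, GAA and TTC in either order with any 2 bases between them, and as 3 units, in which the first unit is repeated after any 2 further bases, so that each 3-unit match contains a 2-unit match, and the AP-1 site, the sequence bound by c-Jun dimers, as TGANTCA, all of them on both strands. The first stretch, before *Hspa1a*, is shown because that gene and its neighbour *Hspa1b* differed most between hearts, the second, before *Bag3*, because it holds an AP-1 site, and the last 3 because they hold 3-unit elements. Capitals mark the matches, and the last 3 are cut to 30 bases. Of these 3, the *Hspe1* stretch lies before the start of its gene, the *Chordc1* stretch spans the start, and the *Hsph1* stretch lies just after the start of its window, inside the gene.
Hspa1a, minus strand, chr17:34972157-34972406: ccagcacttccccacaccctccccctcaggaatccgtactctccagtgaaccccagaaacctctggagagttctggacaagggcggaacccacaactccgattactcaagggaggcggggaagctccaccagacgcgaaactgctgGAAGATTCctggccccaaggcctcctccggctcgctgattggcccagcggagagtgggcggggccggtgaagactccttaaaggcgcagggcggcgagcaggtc
Bag3, plus strand, chr7:128523333-128523582: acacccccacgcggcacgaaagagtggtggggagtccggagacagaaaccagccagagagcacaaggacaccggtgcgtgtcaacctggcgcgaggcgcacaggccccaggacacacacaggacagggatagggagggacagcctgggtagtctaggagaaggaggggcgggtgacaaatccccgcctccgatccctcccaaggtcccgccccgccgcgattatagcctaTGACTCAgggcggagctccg
Hsph1, minus strand, chr5:149636279-149636308: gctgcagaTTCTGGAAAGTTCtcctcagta
Chordc1, plus strand, chr9:18292260-18292289: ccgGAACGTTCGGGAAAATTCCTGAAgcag
Hspe1, plus strand, chr1:55088053-55088082: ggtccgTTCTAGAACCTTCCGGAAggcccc

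The 3-unit element was found in 5 of the 39 windows, those of *Hsph1*, *Chordc1*, *Hspd1* and *Hspe1*, against 0.603% of all 32851 windows. The 2-unit element was found in 17 of them, from 16 genes, against 15.1% of all windows, and the AP-1 site in 2, those of *Bag3* and *Cct5*, against 7.81%. *Hspd1* and *Hspe1* lie head to head on chromosome 1, so that 1 element may lie in windows of both genes and be counted more than once. The 250 bases before *Hspa1b* (chr17:34959239-34959488) matched those before *Hspa1a* at 247 positions, and both hold the same element, with its first base 104 bases before the start.

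*Jun* checked the labels. Its brighter probe set had log2 signals of 8.30 and 9.00 on Junf/f replicates 1 and 2 and of 7.02 and 7.14 on Jun delta mu replicates 1 and 2. In what follows signals and differences are on the log2 scale of the deposited RMA values, a difference is Jun delta mu minus Junf/f, and to pass the threshold a probe set had to have an unadjusted p below 0.05 from limma together with a difference above 1.3-fold, the sizes the methods name. No probe set of the array reached an adjusted p under 0.05, where the smallest was 0.237 (limma, Benjamini-Hochberg), and 2326 had an unadjusted p under 0.05. Correlations between arrays across probe sets were 0.994 to 0.997. Junf/f replicate 1 stood somewhat apart, at 0.9943 to 0.9946 with the other arrays. The highest correlation was 0.9969 for Junf/f replicate 2 and 0.9973 for both Jun delta mu hearts. Heart muscle was well represented, with *Myh6* between 14.67 and 14.72 and a summed linear signal of 10 cardiac muscle genes between 204100 and 207800 on the 4 arrays. The arrays differed in other tissue. Over 3 atrial genes (*Sln*, *Myl7* and *Myl4*) the summed linear signal was 95.35 and 124.2 in Junf/f hearts, 114.9 on Jun delta mu replicate 1 and 1349 on Jun delta mu replicate 2.

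Heat shock and chaperonin genes differed little between the genotypes. By the brightest probe set of each gene, none of the 34 passed the threshold in either direction, where 0.665% of all genes passed as higher and 0.786% as lower. The 34 differences ran from -0.25 to 0.34 with a median of -0.05, and the median over all 18193 genes was 0.0055. Of the 34, 33 were within 0.25 of 0 and 20 within 0.1. Below 0 were 24 of the 34, or 70.6%, against 47.6% of all genes. By the brightest probe set, the 95% interval of the difference lay inside 1.3-fold on both sides for 19 genes. Among them were *Hspa8*, *Cryab*, *Hspb6*, *Bag3*, *Hspd1*, *Hspe1*, *Hspa9* and 7 of 8 CCT subunits. For the brightest probe sets of the 19 a larger change is outside the interval. *Hspa4* is also among the 19, although a dimmer probe set of it differed by -0.47 (95% interval -0.89 to -0.05). Both Jun delta mu hearts were below both Junf/f hearts for 9 genes and above them for 2, which compares with 15.9% and 17.8% of all genes. Over all 88 probe sets 2 passed as lower, where the array as a whole gave 0.959%, and 0 passed as higher, where it gave 0.568% (1.53% in either direction). The 2 probe sets belong to *Hspa4* and *Cct4*, each with an adjusted p = 0.896 from limma. By limma they were also the only ones of the 88 with an unadjusted p under 0.05, where 5.16% of all probe sets had one. By the methods' t-test 4 of the 88 had one, and the share over all probe sets by that test is not given here.

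**Figure D1:**
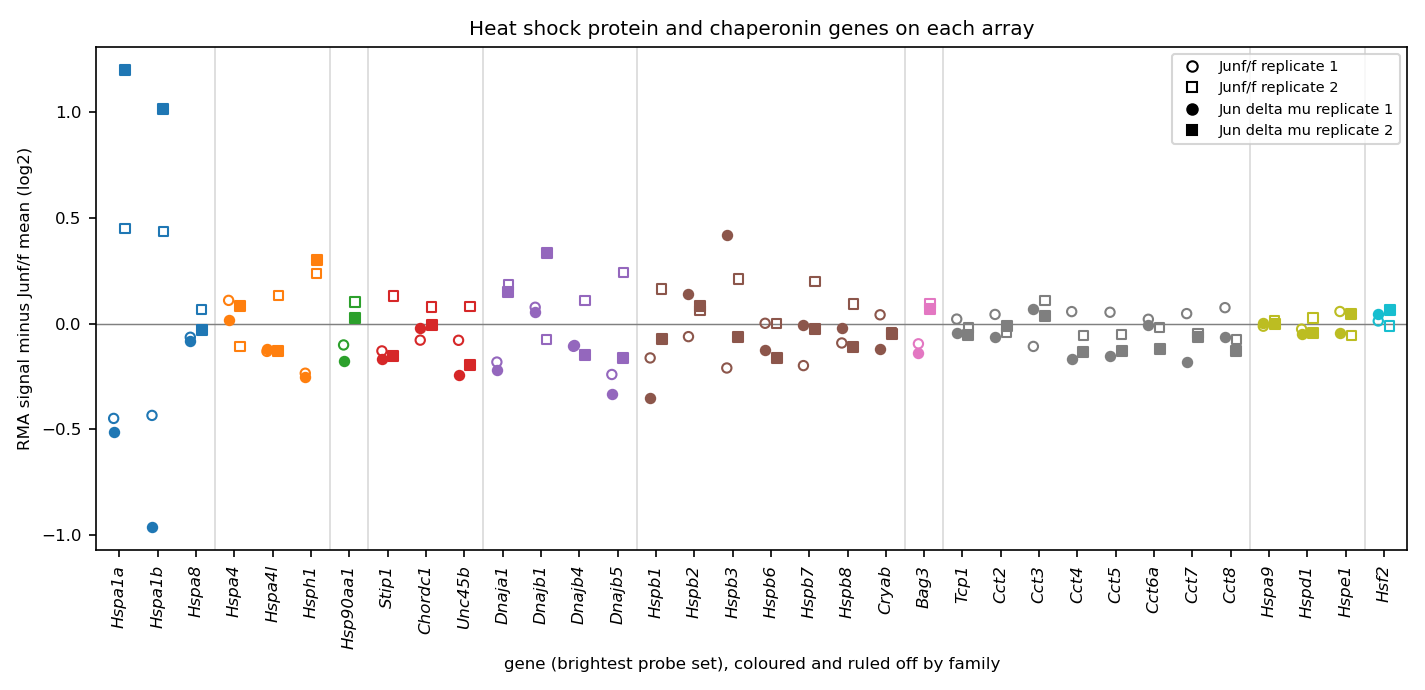
RMA signal of the brightest probe set of each of 34 genes on each array, relative to the mean of the Junf/f hearts (log2); open symbols are Junf/f and filled symbols Jun delta mu, circles replicate 1 and squares replicate 2, with families ruled off by lines. Hspa1a and Hspa1b spread over more than the other genes in both genotypes, and the CCT and mitochondrial genes lie close to 0.

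Among the HSP70 proteins, the stress-inducible pair *Hspa1a* and *Hspa1b* varied far more between hearts of 1 genotype than between the genotypes. A gap between replicates larger than the genotype difference was not particular to this pair. It was found for 26 of the 34 genes and for 78.2% of all genes. *Hspa1a* was at 6.54 and 7.44 on Junf/f replicates 1 and 2 and at 6.48 and 8.19 on Jun delta mu replicates 1 and 2. *Hspa1b*, by its brightest probe set, was at 7.84 and 8.70 in Junf/f and at 7.31 and 9.29 in Jun delta mu hearts. The groups overlapped for both genes, and replicate 2 was the higher heart in each genotype. The differences were 0.34 (95% interval -1.14 to 1.82) for *Hspa1a* and 0.03 (95% interval -1.63 to 1.68) for *Hspa1b*, and neither passed. The dimmest of the 3 probe sets of *Hspa1b* gave -0.12, from 6.58 and 7.49 against 5.75 and 8.08, so that its probe sets differ in sign. Since the coding and flanking DNA of this pair is nearly the same, as in the stretches before them, signal of one can be read by probes of the other and the genes are reported as uncertain.

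With so wide a gap, 1 heart decided what was called for this pair. Here and below, when 1 array is left out its genotype has a single array, so the spread comes from the other genotype and limma's prior, and the single array is assumed to vary likewise. Without Jun delta mu replicate 1 *Hspa1a* was higher by 1.20 and passed (unadjusted p = 0.0386), and without Jun delta mu replicate 2 the difference was -0.51. Without Jun delta mu replicate 2 the dimmest probe set of *Hspa1b* was lower by -1.29 and passed (unadjusted p = 0.0314), and without replicate 1 it was at 1.04. Jun delta mu replicate 2, where both genes were highest, is the heart with the atrial genes, and their part in the result was not tested. In Junf/f hearts the gap was 0.90 for *Hspa1a* and 0.87 for *Hspa1b*, with atrial sums of 95.35 on replicate 1 and 124.2 on replicate 2. Of 10 immediate early genes, 2 were higher on replicate 2 in both genotypes, *Atf3* (gaps of 0.48 and 0.15) and *Fosb* (gaps of 0.18 and 0.04). The summed linear signal of the 10, to which *Dusp1* gave the most, was 3090 and 2651 in Junf/f and 2936 and 2827 in Jun delta mu hearts. Of these 10, 1 passed the threshold, *Egr2*, as higher by 0.41, where 0.665% of all genes passed as higher. Its signals were 3.34 to 4.04 on the 4 arrays, and its other probe set, at 0.14, did not pass. Those of *Fosb* were 3.39 to 3.74, so that both genes lay below the median of each array. The part of these genes in the result was not tested either.

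*Hspa8*, the constitutive HSP70 of the cytosol, was at 13.36 and 13.49 in Junf/f and at 13.34 and 13.40 in Jun delta mu hearts, a difference of -0.06 (95% interval -0.29 to 0.18). The groups overlapped, and the hearts of each genotype lay 0.13 and 0.05 apart, in contrast to the inducible pair.

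The HSP110 proteins help HSP70 release its clients. *Hspa4* was at 10.49 and 10.27 in Junf/f and at 10.40 and 10.47 in Jun delta mu hearts by its brightest probe set, a difference of 0.05 (standard error 0.11). The third brightest of its 4 probe sets passed the threshold as lower, at 8.31 and 7.84 against 7.60 and 7.62, a difference of -0.47 (standard error 0.17, unadjusted p = 0.0351). On that probe set both Jun delta mu hearts were below both Junf/f hearts, but the Junf/f hearts lay farther from each other than the lower of them from the Jun delta mu hearts. It no longer passed without Junf/f replicate 1 (-0.23), without Jun delta mu replicate 1 (-0.46), without Jun delta mu replicate 2 (-0.47) or by the methods' t-test. The second brightest was at 9.80 on both Junf/f arrays and at 9.74 and 9.73 on the Jun delta mu arrays, a difference of -0.07. The dimmest was at 5.04 and 4.97 against 4.74 and 4.92, a difference of -0.18. All 3 dimmer probe sets thus had both Jun delta mu hearts below both Junf/f hearts, and as the median of the 4 probe sets on each array the difference of *Hspa4* was -0.27 (unadjusted p = 0.0580, limma), which did not pass. *Hspa4l*, a relative best known from testis, was at 9.45 and 9.71 in Junf/f and at 9.46 and 9.45 in Jun delta mu hearts, a difference of -0.13 (95% interval -0.42 to 0.17), with all 5 of its probe sets between -0.16 and 0.03. *Hsph1*, the stress-inducible form, whose 3-unit element is printed above, was at 9.82 and 10.29 in Junf/f and at 9.80 and 10.35 in Jun delta mu hearts. It differed by 0.02 (95% interval -0.57 to 0.61), and replicate 2 was the higher heart in each genotype.

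*Hsp90aa1*, the inducible cytosolic HSP90, was at 11.79 and 11.99 in Junf/f and at 11.72 and 11.92 in Jun delta mu hearts, a difference of -0.07 (95% interval -0.38 to 0.23). Its 5 probe sets differed by -0.22 to 0.07, and none passed. Among partners of HSP90, *Unc45b*, a chaperone for myosin in striated muscle, was at 11.66 and 11.82 in Junf/f and at 11.50 and 11.55 in Jun delta mu hearts. Both Jun delta mu hearts were lower, by -0.22 (standard error 0.10, 95% interval -0.47 to 0.03), which did not pass (unadjusted p = 0.0706). *Stip1*, which ties HSP70 to HSP90, was at 9.02 and 9.28 against 8.99 and 9.00, a difference of -0.16 that shrank to -0.03 without Junf/f replicate 2. *Chordc1*, a zinc-binding partner of HSP90 with 3 overlapping 3-unit matches in its window, was at 9.68 and 9.84 against 9.74 and 9.75, a difference of -0.01 (95% interval -0.26 to 0.23).

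DNAJ proteins deliver clients to HSP70 and start its ATP cycle. *Dnajb5* had the lowest difference of the 34 genes, -0.25 (95% interval -0.69 to 0.20), with 9.76 and 10.24 in Junf/f and 9.67 and 9.84 in Jun delta mu hearts. Its Junf/f hearts were 0.48 apart, and the gene passed as lower without Junf/f replicate 1 (-0.49) but was at -0.0063 without Junf/f replicate 2. All 3 of its probe sets were below 0, from -0.39 to -0.18. *Dnajb1*, the stress-inducible partner of HSP70, was at 9.28 and 9.12 in Junf/f and at 9.25 and 9.53 in Jun delta mu hearts, a difference of 0.19 (95% interval -0.13 to 0.51), and its other probe set was at -0.05. Without Jun delta mu replicate 2 the difference of *Dnajb1* was 0.05. *Dnaja1* was at 10.70 and 11.07 against 10.67 and 11.03, a difference of -0.04, and *Dnajb4*, a form abundant in heart, at 11.23 and 11.45 against 11.24 and 11.19, a difference of -0.12 that was -0.02 without Junf/f replicate 2. For each of the 4 genes the hearts of the genotypes overlapped by the brightest probe set. On the dimmest probe set of *Dnajb5*, at -0.39, both Jun delta mu hearts (8.07 and 7.97) were below both Junf/f hearts (8.10 and 8.72).

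**Figure D2:**
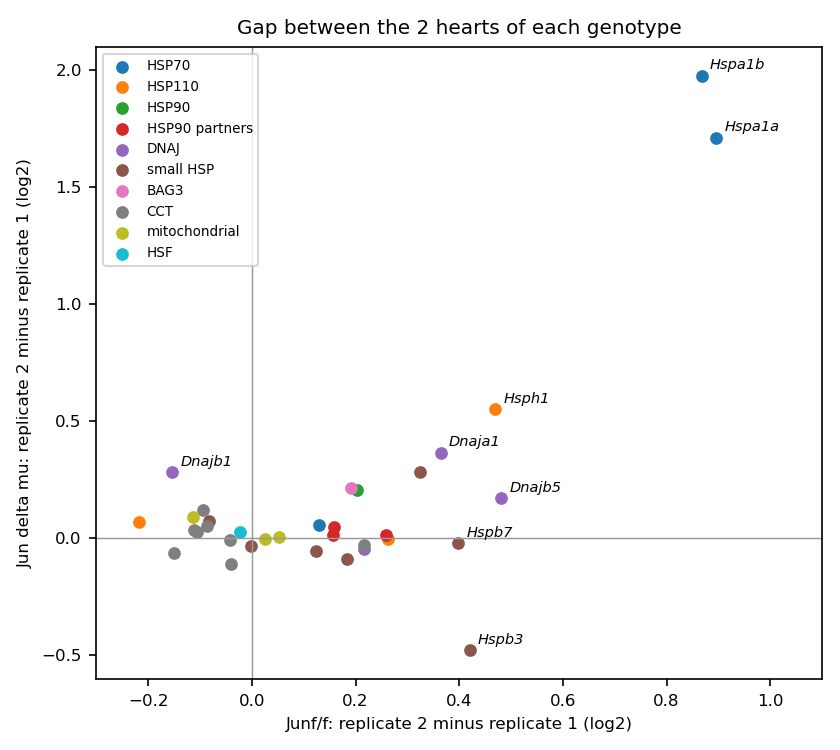
Gap between the hearts of each genotype for 34 genes: replicate 2 minus replicate 1 (log2) in Junf/f on the horizontal axis and in Jun delta mu on the vertical axis, 1 point per gene, coloured by family. Hspa1a and Hspa1b stand apart at gaps of 0.87 to 1.98, followed by Hsph1 at 0.47 and 0.55; replicate numbers are names and do not tie a heart of one genotype to a heart of the other.

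The gap between hearts of a genotype was wide for a few inducible genes. It exceeded 0.5 in Jun delta mu for 3 of 34 genes, *Hspa1a*, *Hspa1b* and *Hsph1*, or 8.82%, where the share over all genes was 0.962%. In Junf/f it exceeded 0.5 for *Hspa1a* and *Hspa1b*, or 5.88%, where the share over all genes was 3.82%. *Dnaja1* had gaps of 0.36 in both genotypes and *Hsp90aa1* gaps of 0.20 in both. Of the 34 genes, 13 were higher on replicate 2 in both genotypes, or 38.2%, against 26.9% of all genes. *Hspd1*, *Hspe1* and *Chordc1*, which hold 3-unit elements as *Hsph1* does, had gaps of at most 0.16. These gaps were singled out after the values were seen and carry no test.

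Small heat shock proteins showed no difference past the threshold in any of 14 probe sets. *Cryab* (αB-crystallin), which guards desmin and other filaments of heart muscle, was at 13.86 and 13.78 in Junf/f and at 13.70 and 13.77 in Jun delta mu hearts, a difference of -0.08 (95% interval -0.31 to 0.15). *Hspb6* was at 13.38 in both Junf/f hearts and at 13.26 and 13.22 in Jun delta mu hearts. Its difference of -0.14 (95% interval -0.36 to 0.07) held in sign with any array left out, from -0.16 to -0.12, yet stayed below 1.3-fold. *Hspb1* (Hsp25 in mice) was at 12.95 and 13.27 against 12.76 and 13.04, a difference of -0.21 (95% interval -0.60 to 0.18) with overlapping groups, and at -0.05 without Junf/f replicate 2. *Hspb7*, a small heat shock protein of heart and skeletal muscle, was at 12.60 and 13.00 against 12.79 and 12.77, a difference of -0.02, the smallest in size of the 7. *Hspb8*, which acts with Bag3, differed by -0.07 and *Hspb2*, expressed mainly in muscle, by 0.11. *Hspb3* was at 8.21 and 8.63 against 8.84 and 8.36, a difference of 0.18 (95% interval -0.35 to 0.71), and its hearts crossed over in the 2 genotypes. Of the 7 genes, 5 were below 0, as were 47.6% of all genes, and the median was -0.07.

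*Bag3*, the exchange factor that joins HSP70 to small heat shock proteins at the Z-disc and whose upstream stretch holds the AP-1 site TGACTCA, did not differ beyond the spread between hearts. It was at 11.32 and 11.51 in Junf/f and at 11.27 and 11.48 in Jun delta mu hearts, a difference of -0.04 (95% interval -0.34 to 0.27). The hearts of each genotype lay 0.19 and 0.21 apart.

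Subunits of the CCT ring lay slightly below 0 and none passed the threshold. By their brightest probe sets the differences of the 8 subunits ran from -0.15 to 0.05 with a median of -0.08, and 7 were below 0, as were 47.6% of all genes. *Cct4* was at 11.63 and 11.51 in Junf/f and at 11.40 and 11.43 in Jun delta mu hearts, a difference of -0.15 (95% interval -0.38 to 0.08). *Cct5*, the other gene with an AP-1 site in its window, was at 11.06 and 10.96 against 10.86 and 10.88, a difference of -0.14, while *Cct7* was at 10.78 and 10.68 against 10.55 and 10.67, a difference of -0.12. *Tcp1* was at 11.67 and 11.63 against 11.60 and 11.59, a difference of -0.05. For these 4 of the 8 subunits both Jun delta mu hearts were below both Junf/f hearts, where 15.9% of all genes were. None of the differences passed. *Cct2*, the subunit with the smallest difference, was at 10.86 and 10.77 against 10.75 and 10.81, a difference of -0.04. *Cct8* differed by -0.10 and *Cct6a* by -0.06, and in all 3 of these subunits the groups overlapped. *Cct3*, the one subunit above 0, differed by 0.05, and by -0.11 as the median of its 7 probe sets on each array.

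The dimmest of the 7 probe sets of *Cct4* passed the threshold as lower, at 3.96 and 4.13 in Junf/f and at 3.53 and 3.60 in Jun delta mu hearts, a difference of -0.48 (standard error 0.10, unadjusted p = 0.00433). It passed with any 1 array left out, at -0.57 to -0.39, and by the methods' t-test. Its signal was below the median of the arrays, 5.45 to 5.47, and the other 6 probe sets of the gene differed by -0.15 to 0.19. None of the other 6 passed, the 3 with signals above 10 included.

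**Figure D3:**
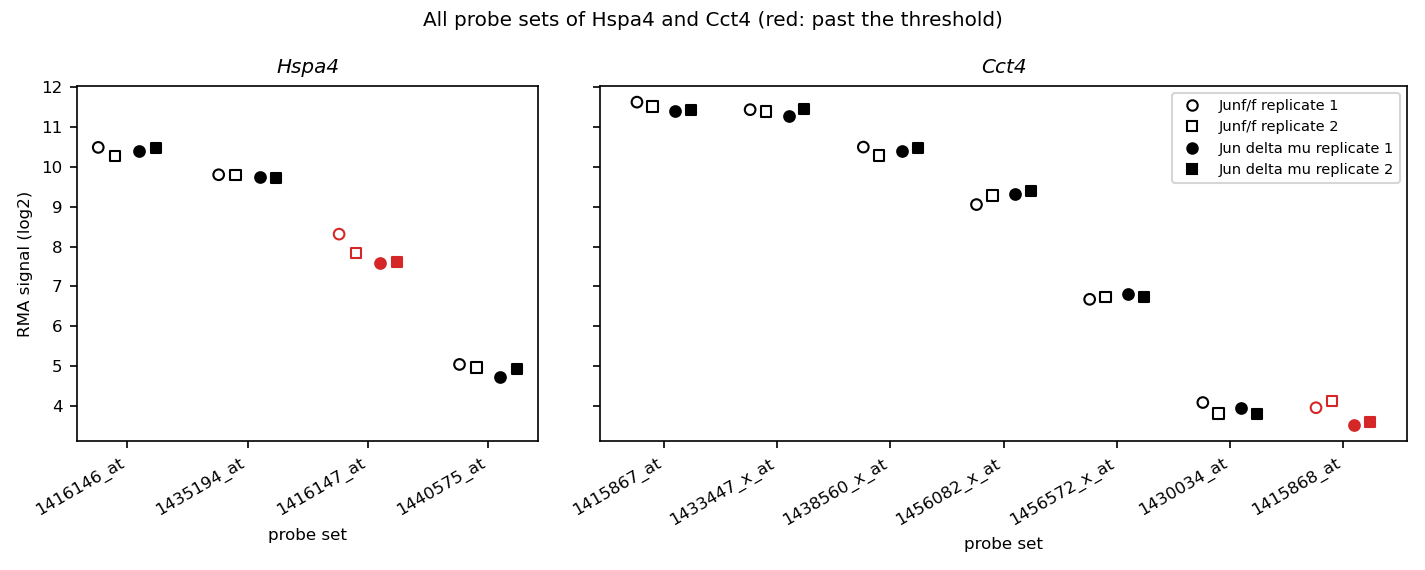
RMA signal (log2) of the 4 probe sets of Hspa4 and the 7 of Cct4 on each array, ordered by mean signal; open symbols are Junf/f and filled symbols Jun delta mu, circles replicate 1 and squares replicate 2, and red marks the probe sets past the threshold. In each gene 1 dimmer probe set passes the threshold as lower, at -0.47 and -0.48, and the brightest differ by 0.05 and -0.15.

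The mitochondrial chaperones fold proteins after import, with *Hspd1* (HSP60) and *Hspe1* (HSP10) forming a chamber and *Hspa9* pulling proteins in. *Hspa9* was at 12.18 and 12.21 in Junf/f and at 12.20 and 12.19 in Jun delta mu hearts, a difference of 0.00 (95% interval -0.21 to 0.21). *Hspd1* was at 12.68 and 12.73 against 12.66 and 12.66, a difference of -0.05 (95% interval -0.26 to 0.17). *Hspe1* was at 12.04 and 11.93 against 11.94 and 12.03, a difference of -0.0009 (95% interval -0.24 to 0.24). All 8 probe sets of the 3 genes were between -0.05 and 0.15. *Hsf2*, the heat shock factor that was measured, had signals of 5.17 to 5.24 on the 4 arrays, below the array medians, and differed by 0.05.

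**Figure D4:**
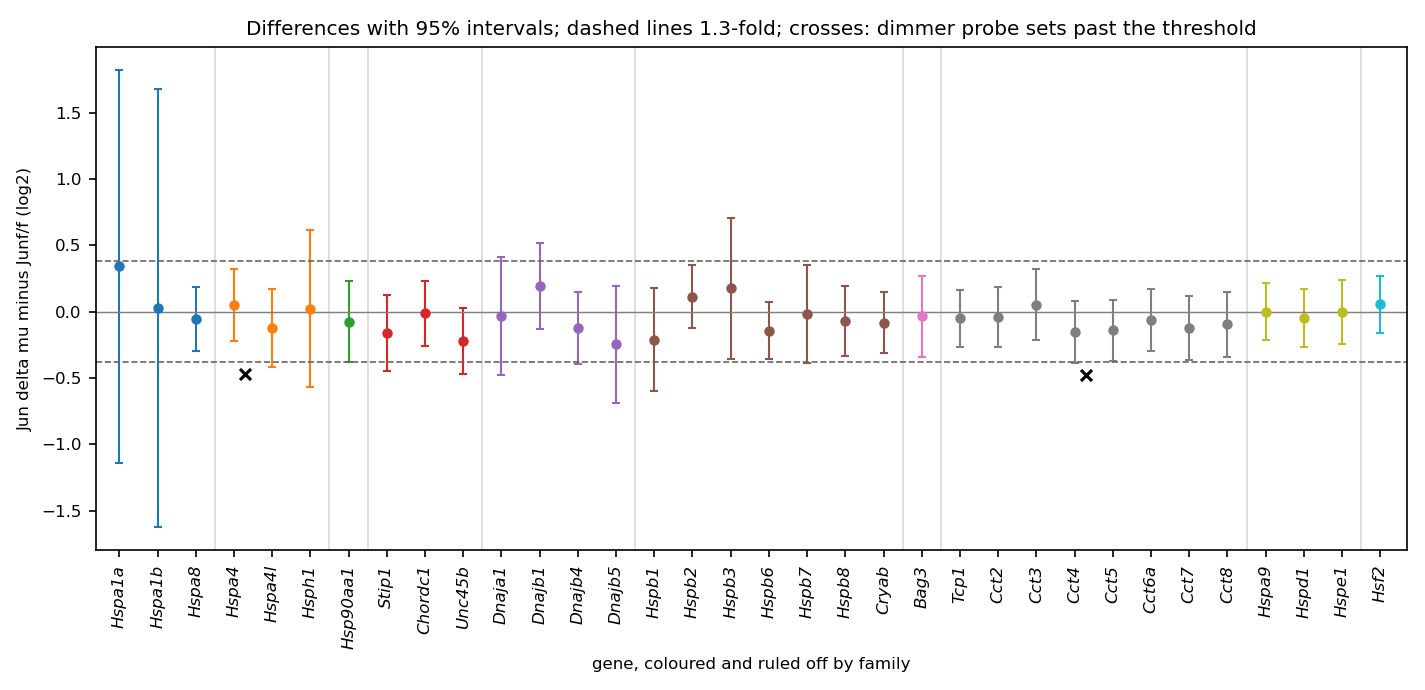
Difference between the genotypes (Jun delta mu minus Junf/f, log2) for the brightest probe set of 34 genes, with 95% intervals from limma; dashed lines mark 1.3-fold and crosses the dimmer probe sets of Hspa4 and Cct4 past the threshold. All intervals include 0, and those of Hspa1a and Hspa1b are the widest.

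Other genes of protein folding were read from lists of related families. For the counts that follow, 0.665% of all genes passed as higher and 0.786% as lower. Of 17 measured co-chaperones of HSP70 and HSP90 outside the genes above, *Fkbp5* alone passed, as higher, and 16 did not. *Fkbp5*, an HSP90 partner of steroid receptors and a known target of glucocorticoids, was at 8.77 and 8.82 in Junf/f and at 9.25 and 9.12 in Jun delta mu hearts, a difference of 0.39 (standard error 0.10, adjusted p = 0.896, limma). Both Jun delta mu hearts were higher on all 3 of its probe sets, which differed by 0.39, 0.31 and 0.15. The last of these was dim, at 3.06 to 3.24 on the 4 arrays, below the array medians. *Fkbp5* fell below the threshold without Junf/f replicate 1 (0.37), without Jun delta mu replicate 1 (0.32) and as the median of its probe sets (0.31). None of 13 other DNAJ genes, 11 other relatives of heat shock proteins, 13 genes of prefoldin and helpers of CCT or tubulin folding, or 9 other mitochondrial chaperones and proteases passed in either direction. Their medians were 0.01, -0.0033, -0.02 and 0.06, beside 0.0055 for all genes. Among the markers of other cells, *Cnn1* of 4 smooth muscle genes was lower past the threshold (-0.67) and all 4 were below 0, *Alas2* of 3 red blood cell genes was lower (-0.49), and none of 7 fibroblast, 6 endothelial and 5 macrophage genes passed. The summed linear signals were 1967 and 1994 in Junf/f and 1373 and 1636 in Jun delta mu hearts for smooth muscle. They were 1556 and 1356 against 1236 and 877 for red blood cells, and 3369 and 3532 against 3127 and 3037 for endothelium. All 3 sums were thus lower in both Jun delta mu hearts. Other lists did not follow. The macrophage sum was higher in both Jun delta mu hearts, at 5749 and 6191 against 5608 and 5623 in Junf/f. The fibroblast sums overlapped, at 18260 and 19720 against 19560 and 17500, and 5 of the 7 fibroblast genes were above 0. *Alas2* gave the most to the red blood cell sum, and for *Slc4a1* and *Hba-a1* the groups overlapped. The part of these lists in the small differences given here was not tested.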

How the data were processed

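The authors deposited 1 log2 value for each probe set and array, made by RMA in the R package oligo, per the submitters' processing notes, which give no versions. The methods name total RNA from whole hearts extracted with TRIzol and the Affymetrix AGCC software, whereas the growth notes describe cultured ventricular cells, a conflict that was not resolved. The table holds 45101 probe sets and no detection calls. After removal of 64 AFFX controls, 45037 probe sets entered a two-sided test of genotype, the only term, by lmFit and eBayes (limma 3.58.1, R 4.3.3), with Benjamini-Hochberg adjustment over all of them. The methods name Student's test at 1.3-fold and p 0.05, and the methods' t-test was an alternative. Each genotype had 2 mice by the methods, and so few arrays limit the precision. Symbols came from the platform annotation, in which 34945 probe sets have 1 gene, 932 have several and 9160 have none, and positions and promoter windows from RefSeq (GRCm38.p6). A gene is given by its probe set with the highest mean signal unless another is named. Values on each array are given at least for genes with a probe set past the threshold, for the largest and smallest differences of each family, for *Hspa1a* and *Hspa1b*, and for genes whose probe sets disagree in sign by over 0.3. Other tests, filters and normalizations and the omission of each array were tried. The members and gene lists were chosen with earlier results of these data known. Replicate numbers do not tie hearts across genotypes. The procedure was tested on simulated data. Figures were drawn with matplotlib 3.10.9.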

Additional observations from a re-analysis of the deposited data

How the results depend on the processing

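Of the heat shock and chaperonin probe sets, 2 were lower and 0 higher past the threshold. The lower count was 1 by the methods' t-test, 0 by that test after adjustment, and 1 after the dimmest 40% of the array was removed, where 79 of 88 stayed, and it was 1 to 4 with 1 array left out. The 4, without Junf/f replicate 1, were 2 probe sets of *Dnajb5*, 1 of *Hspb7* and 1 of *Cct4*. The higher count was 0 to 1 with 1 array left out. Over the array, 256 probe sets were higher and 432 lower. These became 89 and 111 by the methods' t-test, 0 and 0 after its adjustment, and 158 higher without the dimmest 40%. With 1 array left out they were 320 to 1466 and 419 to 1986, the highest without Junf/f replicate 2. With replicate number as a block the counts were 254, 429, 2 and 0. Deviations of same-numbered hearts correlated at 0.03, and with 2 pairs and no shared origin in the labels this does not pair the hearts. Cyclic loess, median centring, quantile normalization, a trended robust prior and specific probe sets alone kept each count they were run for within 1.5 times. Some of these settings used fewer probe sets or arrays, and the cause of the shifts was not tested.

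The sign of 16 of the 34 genes changed with 1 array left out. Their differences then ran from -0.51 to 1.20 for *Hspa1a*, from -0.96 to 1.02 for *Hspa1b* (from -0.84 to 1.20 and from -1.29 to 1.04 by its dimmer probe sets), from -0.12 to 0.0092 for *Hspa8*, from -0.059 to 0.16 for *Hspa4*, from -0.26 to 0.0067 for *Hspa4l*, from -0.25 to 0.30 for *Hsph1*, from -0.18 to 0.027 for *Hsp90aa1*, from -0.092 to 0.066 for *Chordc1*, from -0.22 to 0.15 for *Dnaja1*, from -0.065 to 0.42 for *Hspb3*, from -0.21 to 0.18 for *Hspb7*, from -0.16 to 0.025 for *Hspb8*, from -0.14 to 0.070 for *Bag3*, from -0.081 to 0.0048 for *Cct2*, from -0.055 to 0.16 for *Cct3* and from -0.058 to 0.056 for *Hspe1*. Among genes that kept their sign, values also moved by over 1.5 times, from -0.37 to -0.05 for *Hspb1*, from 0.05 to 0.33 for *Dnajb1*, from -0.23 to -0.02 for *Dnajb4*, from -0.12 to -0.0083 for *Cct6a* and from -0.17 to -0.02 for *Cct8*, among others. With the median of all probe sets of a gene the sign turned for *Hspa8* (0.034), *Hspa4* (-0.27), *Hsph1* (-0.017), *Cct3* (-0.11) and *Cct4* (0.19), and with quantile normalization for *Chordc1* (0.0011) and *Hspe1* (0.0035). The deposited values carry no detection calls, so that differences of dim probe sets, *Hsf2* and the dimmest of *Cct4* among them, cannot be set against a background level.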
